A study of Mus musculus with 12 samples.

Results

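The 10 genes described here carry branched-chain amino acids (BCAAs) into the cell and into the mitochondrion and perform the first steps of their breakdown. They are Slc7a5 and Slc3a2, Slc25a44, Bcat1 and Bcat2, Bckdha, Bckdhb and Dbt, and Bckdk and Ppm1k. They were taken by gene symbol from a table of 25124 genes, and all 10 were listed there. Of these genes, 8 had a mean of at least 1 TPM (a level scaled for transcript length and for library size) and entered the test across all genes, while Bcat1 and Slc7a5 did not.

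RNA was measured by poly-A RNA-seq in interscapular brown adipose tissue (BAT) of 10-week-old male mice on a C57B/6J background. There were 4 groups of 3 libraries each. RT WT and RT Txnip-/- mice were kept at 23 °C (room temperature) for 1 week, and TN WT and TN Txnip-/- mice at 30 °C (thermoneutrality) for 1 week. Txnip encodes thioredoxin-interacting protein, and Txnip-/- mice lack it in every tissue, so that no effect can be assigned to BAT alone.

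Valine, leucine and isoleucine enter cells through a transporter made of the light chain Slc7a5 and the heavy chain Slc3a2, and BAT mitochondria import them through the carrier Slc25a44. Transaminases, mitochondrial Bcat2 or cytosolic Bcat1, turn them into ketoacids and move the amino group onto another ketoacid, which becomes glutamate. The branched-chain ketoacid dehydrogenase complex then removes carbon dioxide in an irreversible step. The complex's decarboxylase is formed by Bckdha and Bckdhb, its transacylase core is Dbt, and its last subunit, Dld, is shared with other ketoacid dehydrogenases. The kinase Bckdk switches the complex off by phosphorylating Bckdha, and the phosphatase Ppm1k reverses this. BAT burns BCAAs in the cold, when heat production rises.

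The libraries held from 29.9 M to 47.4 M reads, and Pearson's r between libraries of a group, across genes, was at least 0.985. The deleted gene matched the labels: Txnip was at 613 ± 70.8 TPM (SD, n = 3) in WT against 29.0 ± 5.59 TPM in Txnip-/- mice at RT, and at 1131 ± 92.7 and 12 ± 2.12 TPM at TN. The 7 brown adipocyte markers, none of them at 0 in any group, summed to between 27879 and 28819 TPM in RT WT, 24537 and 29412 TPM in RT Txnip-/-, 19991 and 21619 TPM in TN WT, and 17240 and 18987 TPM in TN Txnip-/- libraries. Most of this sum is Fabp4, a gene of all adipocytes, and the 7 markers did not move together: at TN the ratio of Txnip-/- to WT means was 1.02 for Fabp4 and 1.13 for Adipoq, 0.823 for Plin1 and 0.694 for Cidea, and 0.422 for Cox8b, 0.306 for Ucp1 and 0.131 for Elovl3. At RT it ran from 0.328 for Elovl3 to 1.04 for Adipoq. The sum of 6 macrophage markers ran the other way, from a mean of 48.3 TPM in RT WT to 114 TPM in RT Txnip-/-, 152 TPM in TN WT and a mean of 393 TPM in TN Txnip-/- mice. The 5 fibroblast markers summed to means of 162, 192, 272 and 496 TPM in the same order. The 4 endothelial markers summed to 216, 196, 291 and 305 TPM, and the 8 lymphocyte markers to 3.94, 4.88, 8.59 and 16 TPM. The 7 skeletal muscle markers summed, again in this order, to 2.64, 33.1, 7.47 and 7.30 TPM, and replicate 2 carried both TN means (16.4 TPM in WT, with 3.58 and 2.46 TPM in the other libraries, and 15.6 TPM in Txnip-/-, with at most 3.33 TPM). In bulk tissue, fewer cells of a type and less RNA per cell cannot be told apart, and the part of these cell types in the results was not tested.

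**Figure D1:**
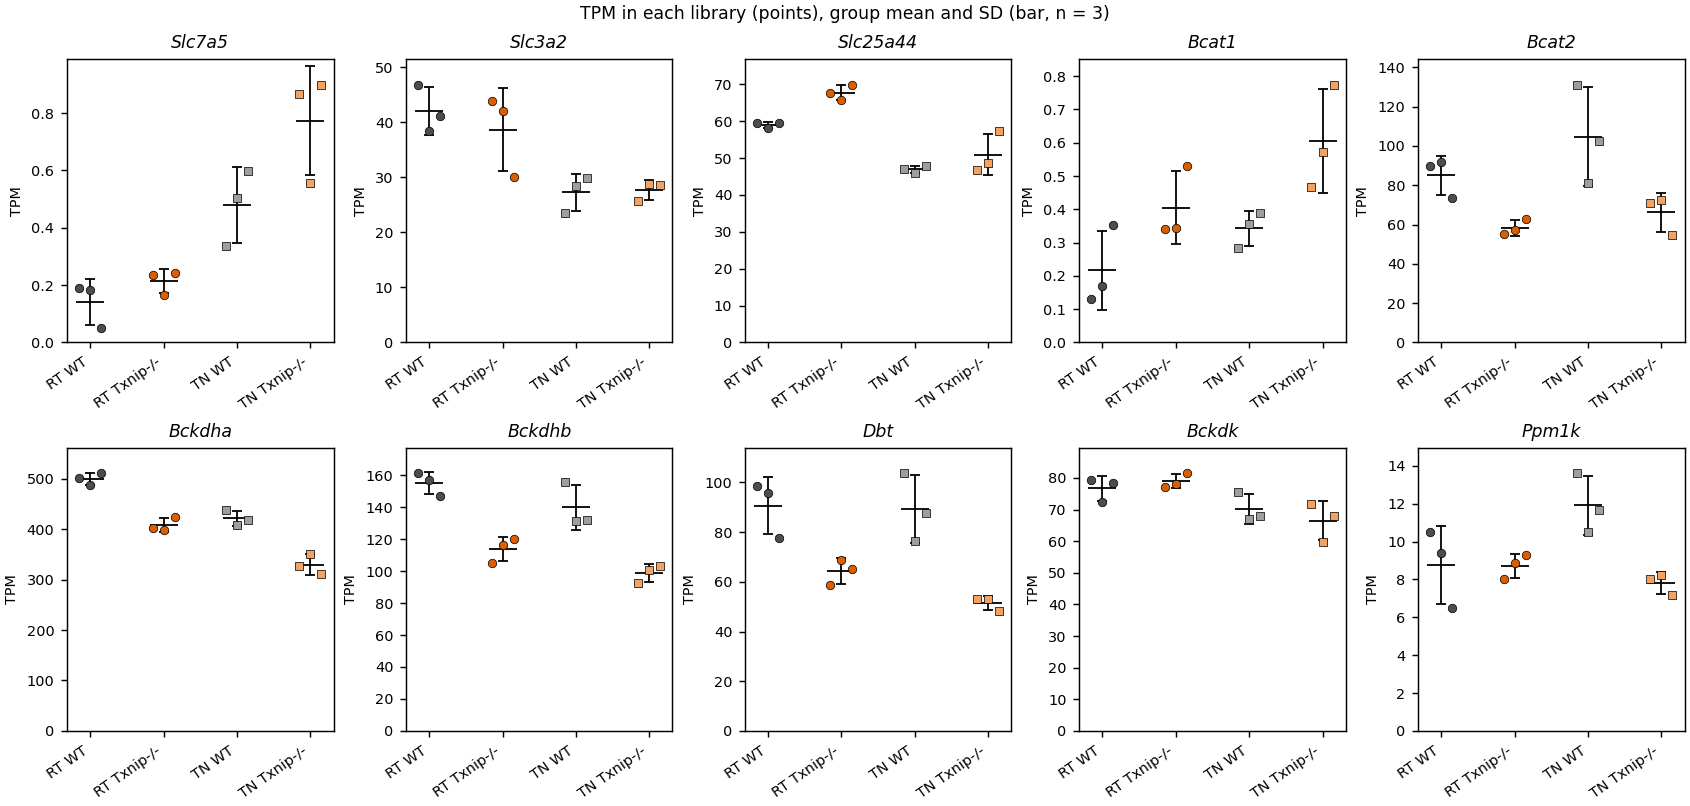
TPM (y axis, from 0) of the 10 genes in each library of the 4 groups (x axis); points are libraries, and bars are the group mean and SD of 3 libraries. Bcat2, Bckdha, Bckdhb and Dbt lie lower in every Txnip-/- library than in every WT library of the same temperature, whereas Bckdk overlaps between genotypes at both temperatures.

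In TPM, the members differed widely in level. Bckdha was the highest, with a mean over the 4 groups of 415 TPM, followed by Bckdhb (127 TPM), Bcat2 (78.6 TPM), Dbt (73.9 TPM), Bckdk (73.0 TPM), Slc25a44 (56.2 TPM) and Slc3a2 (33.9 TPM). The phosphatase Ppm1k had 9.31 TPM, and Slc7a5 and Bcat1 had 0.402 and 0.392 TPM. In these tissues the mitochondrial transaminase far exceeded the cytosolic form, since Bcat2 was between 70.8 and 685 times Bcat1 in single libraries.

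The DNA just before the transcription start is shown for Bcat2, Bckdha and Bckdhb, whose transcripts were lower in Txnip-/- mice, and for Bckdk, whose transcript was not called in either genotype comparison. Each is the 150 bases that end at the base before the counted transcript's start, taken from RefSeq promoter windows on GRCm38.p6 (the mm10 coordinates), read 5′ to 3′ on the gene's strand, with each CpG in capitals. They lie at chr7:45570003-45570152 (+, Bcat2), chr7:25658762-25658911 (-, Bckdha), chr9:83924987-83925136 (+, Bckdhb) and chr7:127903923-127904072 (+, Bckdk).
Bcat2: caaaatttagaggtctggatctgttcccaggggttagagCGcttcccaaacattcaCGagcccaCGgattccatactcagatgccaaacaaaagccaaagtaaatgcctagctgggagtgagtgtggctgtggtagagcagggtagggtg
Bckdha: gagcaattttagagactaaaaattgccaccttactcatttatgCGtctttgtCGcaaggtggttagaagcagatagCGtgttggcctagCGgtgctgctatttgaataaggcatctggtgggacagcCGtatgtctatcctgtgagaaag
Bckdhb: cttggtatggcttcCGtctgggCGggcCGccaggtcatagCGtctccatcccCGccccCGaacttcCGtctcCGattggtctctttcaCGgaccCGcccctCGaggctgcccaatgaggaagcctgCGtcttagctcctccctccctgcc
Bckdk: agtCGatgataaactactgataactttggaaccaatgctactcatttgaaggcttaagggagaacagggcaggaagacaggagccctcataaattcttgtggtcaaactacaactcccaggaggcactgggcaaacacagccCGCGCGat
The stretches differ in base composition. Bckdhb has 12 CpG and 65.3% G or C, whereas Bcat2 has 3 CpG and 50.7%, Bckdha 5 and 45.3%, and Bckdk 4 and 48%, beside a median of 4 CpG in the same stretch of all 32851 windows. Windows from 250 bases before to 50 after the start were found for 7 of the 10 genes, 10 windows in all, and not for Slc25a44, Dbt and Slc7a5. Exact matches on both strands were searched in these 10 windows for the cAMP response element TGACGTCA, which is in 1.79% of all windows, the estrogen-related receptor element AAGGTCA (4.72%), the nuclear respiratory factor 1 core GCGCATGC (2.71%), the C/EBP-ATF composite TGATGNAA (3.97%) and the E-box CACGTG (7.15%). None of these motifs occurred in any of the 10 windows.

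The first comparison asks whether the loss of Txnip changes these transcripts at RT. Bcat2 and Bckdhb were lower in Txnip-/- mice, by log2 fold changes of -0.53 and -0.44. Bckdha and Dbt lay in the same direction in every library without being called, Slc25a44 lay slightly higher, and neither Bckdk nor Ppm1k passed the test. A call required a limma adjusted p under 0.05 together with a fold change over 1.25 or under 0.8, which left 2 of 8 tested members called lower and 0 higher. Of all 11980 genes tested, 0.726% were called lower, 0.76% higher and 1.49% in either direction, and the 178 genes behind that share became between 2 (without RT WT 2) and 159 with 1 library left out.

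Bcat2 had 89.7, 92.0 and 73.7 TPM in the 3 RT WT libraries and 55.3, 57.0 and 62.9 TPM in the 3 RT Txnip-/- libraries. The groups did not overlap, and the limma adjusted p was 0.0499 (standard error 0.10), just under the threshold. How many of all genes lie apart in this way was not counted. With 3 libraries against 3 the smallest exact two-sided permutation p is 0.1, so separation of groups, here and below, is a description alone. Bckdhb, the decarboxylase's other subunit, had 161, 157 and 147 TPM in WT and 105, 116 and 120 TPM in Txnip-/- libraries, again without overlap (limma adjusted p = 0.0320, standard error 0.07). Bckdha had 501, 487 and 510 TPM in WT and 403, 399 and 425 TPM in Txnip-/- libraries. Its libraries were the most tightly grouped of the subunits, and although its limma adjusted p was 0.0455, the log2 fold change of -0.29 was too small for the call. Dbt had 98.7, 95.7 and 77.6 TPM in WT and 58.6, 68.9 and 65.4 TPM in Txnip-/- libraries, and its log2 fold change of -0.49 missed the threshold (limma adjusted p = 0.0783). The third RT WT library was the lowest of its group for Bcat2, Bckdhb, Dbt and Ppm1k. Without it, Bcat2, Bckdhb and Dbt were all called lower (limma adjusted p = 0.0220, 0.0380 and 0.0323), while leaving out any other single library of the 6 (RT WT 1 or 2, RT Txnip-/- 1, 2 or 3) left 0 members called, with limma adjusted p from 0.122 to 0.174 for Bcat2 and from 0.0727 to 0.136 for Bckdhb. Of 9 other settings, Bcat2 was called lower in 4 and Bckdhb in 6.

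The carrier Slc25a44 had 59.5, 58.1 and 59.4 TPM in RT WT and 67.8, 65.7 and 69.9 TPM in RT Txnip-/- libraries. All Txnip-/- libraries lay above all WT libraries, in the opposite direction to the enzymes, but its log2 fold change of 0.20 (95% confidence interval 0.07 to 0.32) had a limma adjusted p of 0.128. The kinase Bckdk had 79.4, 72.3 and 78.3 TPM in WT and 77.2, 78.1 and 81.4 TPM in Txnip-/- libraries, with a log2 fold change of 0.04 (95% confidence interval -0.10 to 0.18). The groups overlapped. For Ppm1k, which had 10.5, 9.37 and 6.47 TPM in WT and 8.05, 8.86 and 9.30 TPM in Txnip-/- libraries, the interval ran from -0.36 to 0.39, and the sign of its log2 fold change of 0.02 turned with the scaling (-0.0056 with upper-quartile scaling and -0.013 with median centring). Slc3a2 had 46.8, 38.4 and 41.1 TPM in WT and 43.9, 42.1 and 30.0 TPM in Txnip-/- libraries, overlapping groups with a limma adjusted p of 0.711.

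At TN the same question was asked in mice with little demand for heat production. The 3 own subunits of the complex and its phosphatase were lower in Txnip-/- mice: Dbt by a log2 fold change of -0.77, Ppm1k by -0.55, Bckdhb by -0.49 and Bckdha by -0.35. The Bcat2 libraries of the genotypes lay apart as well, but its wide spread kept it from the call, and Slc25a44, Bckdk and Slc3a2 were not called. The paper, which used DESeq2 where limma on TPM was used here, names Bcat2 among the metabolic genes lower at TN. Of 8 tested members 4 were called lower and 0 higher, where 2.17% of all 12891 genes tested were called lower, 6.49% higher and 8.66% in either direction.

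Dbt had 104, 76.6 and 87.6 TPM in the TN WT libraries and 53.2, 53.0 and 48.3 TPM in the TN Txnip-/- libraries. The Txnip-/- libraries were close together and all below the lowest WT library, and the call held without any single library (limma adjusted p = 0.00802, and 0.0105 to 0.0349 with 1 library left out). Ppm1k had 13.6, 10.5 and 11.7 TPM in WT and 8.03, 8.23 and 7.16 TPM in Txnip-/- libraries, without overlap (limma adjusted p = 0.0180, standard error 0.10). Bckdhb had 156, 132 and 132 TPM in WT and 92.5, 101 and 103 TPM in Txnip-/- libraries (limma adjusted p = 0.0141). Bckdha had 437, 409 and 417 TPM in WT and 326, 352 and 312 TPM in Txnip-/- libraries (limma adjusted p = 0.0234). Both decarboxylase subunits lay apart between the genotypes. With all genes above 0 in the fit, Bckdha was not called (limma adjusted p = 0.0574, or 0.0532 on the log2(TPM + 0.1) scale), and with the authors' log2-scale values, in which differences between libraries are shrunken, its log2 fold change of -0.28 was inside the fold limit. Bckdha also lost the call without TN WT 1, TN WT 3, TN Txnip-/- 1 or TN Txnip-/- 3 (limma adjusted p = 0.0578, 0.0637, 0.0937 and 0.0599). Bckdhb lost it without TN Txnip-/- 1 (0.0618), and Ppm1k without TN WT 3 (0.0515) or TN Txnip-/- 1 (0.0586).

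Bcat2 had 131, 80.9 and 102 TPM in TN WT, the widest spread relative to its mean among the 8 tested members in that group, and 71.0, 72.7 and 54.8 TPM in TN Txnip-/- libraries. The groups did not overlap, but the log2 fold change of -0.64 (95% confidence interval -1.05 to -0.23) had a limma adjusted p of 0.0617, and Bcat2 was called without TN WT 2 (0.0333), with all 12 libraries in 1 fit (0.0246) and with the authors' log2-scale values (0.0440). Slc25a44 had 47.0, 46.0 and 47.9 TPM in WT and 46.7, 48.7 and 57.4 TPM in Txnip-/- libraries. The third Txnip-/- library stood above the rest and the groups overlapped (limma adjusted p = 0.480). Bckdk had 75.5, 66.9 and 68.0 TPM in WT and 71.7, 59.6 and 67.9 TPM in Txnip-/- libraries, with a log2 fold change of -0.08 (95% confidence interval -0.28 to 0.12). Slc3a2 had 23.4, 28.4 and 30.0 TPM in WT and 25.7, 28.8 and 28.7 TPM in Txnip-/- libraries, with a log2 fold change of 0.03 (95% confidence interval -0.20 to 0.26) that was -0.0075 with median centring. Both genes overlapped between the genotypes.

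**Figure D2:**
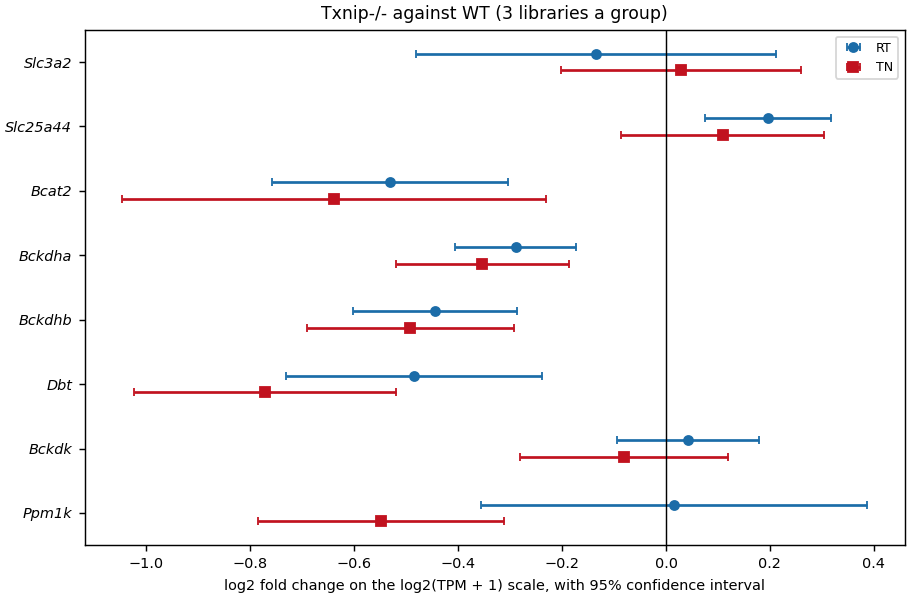
Log2 fold change of Txnip-/- over WT (x axis, log2(TPM + 1) scale) for the 8 tested members (y axis) at RT (circles) and TN (squares), with 95% confidence intervals. The intervals of Bcat2, Bckdha, Bckdhb and Dbt lie below 0 at both temperatures, that of Ppm1k lies below 0 at TN alone and those of Bckdk include 0.

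Over all 12 libraries, with the genotype effect averaged over the temperatures, Dbt (-0.63, limma adjusted p = 0.000549), Bcat2 (-0.58, 0.00505) and Bckdhb (-0.47, 0.000351) were lower in Txnip-/- mice on the log2 scale. These 3 of 8 members compare with 2.2% of 12486 genes called lower, 5.64% called higher and 7.84% in either direction, and all 3 were called in each of the 12 fits that left out a library. Bckdha, at -0.32 with a limma adjusted p of 0.000485, stood just inside the fold limit and was called under 4 of 7 other settings and in 5 of the 12 fits. Slc25a44 was 0.15 higher, with a limma adjusted p of 0.0609. Ppm1k, at -0.27, had a limma adjusted p of 0.108, but was called without RT WT 3 (-0.36, 0.00903), and Bckdk, at -0.02, one of 0.860. This average uses the same libraries as the RT and TN comparisons and is no separate evidence.

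Whether the genotype effect differed between the temperatures was tested as an interaction. None of the 8 members passed a limma adjusted p under 0.05 (0.00801% of 12486 genes did, which is Txnip itself). An unadjusted limma p under 0.05 was found for 1 of the 8 members and for 1571 of the 12486 genes, which is a like share. That member was Ppm1k. Its log2 fold change was 0.02 at RT and -0.55 at TN, a difference of -0.56 (95% confidence interval -1.01 to -0.12, limma adjusted p = 0.295). For Dbt the difference was -0.29 (95% confidence interval -0.64 to 0.07). For Bcat2, Bckdha and Bckdhb the differences were -0.11, -0.06 and -0.05, with intervals of -0.60 to 0.39, -0.24 to 0.11 and -0.29 to 0.20.

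Kinase and phosphatase act on the same site of Bckdha, and the ratio of their TPM within a library does not depend on library scaling. Bckdk over Ppm1k was 7.58, 7.71 and 12.1 in RT WT, 9.60, 8.81 and 8.76 in RT Txnip-/-, 5.55, 6.37 and 5.83 in TN WT, and 8.92, 7.25 and 9.48 in TN Txnip-/- libraries. The TN WT libraries lay below all others. At TN the log2 ratio was 0.52 higher in Txnip-/- than in WT mice, and in WT mice it was 0.59 lower at TN than at RT (0.37 lower without RT WT 3, whose ratio was 12.1). Both had an exact two-sided permutation p of 0.1, the smallest that 3 libraries against 3 allow, and 0.2 after Benjamini-Hochberg adjustment over 4 comparisons. In the other two, Txnip-/- against WT at RT (difference 0.02) and TN against RT in Txnip-/- mice (-0.09), the groups overlapped and the exact permutation p was 1 and 0.8.

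Ratios between the subunits were also taken within each library. Bckdha over Dbt was 5.08, 5.09 and 6.58 in RT WT, 6.88, 5.79 and 6.50 in RT Txnip-/-, 4.22, 5.34 and 4.77 in TN WT, and 6.13, 6.63 and 6.45 in TN Txnip-/- libraries. The genotypes overlapped at RT and lay apart at TN. Bckdha over Bckdhb had group means from 3.03 in TN WT to 3.60 in RT Txnip-/-, and overlapped between the genotypes at both temperatures. Dld, the shared subunit, had 748 ± 27.7 TPM in WT against 718 ± 31.0 TPM in Txnip-/- mice at RT and 642 ± 33.9 and 542 ± 42.4 TPM at TN, a higher level than any of the 3 own subunits. The genotypes overlapped at RT, every TN Txnip-/- library lay below every TN WT library, and Dld was called in neither genotype comparison (limma adjusted p = 0.661 at RT and 0.109 at TN). These ratios were not tested.

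**Figure D3:**
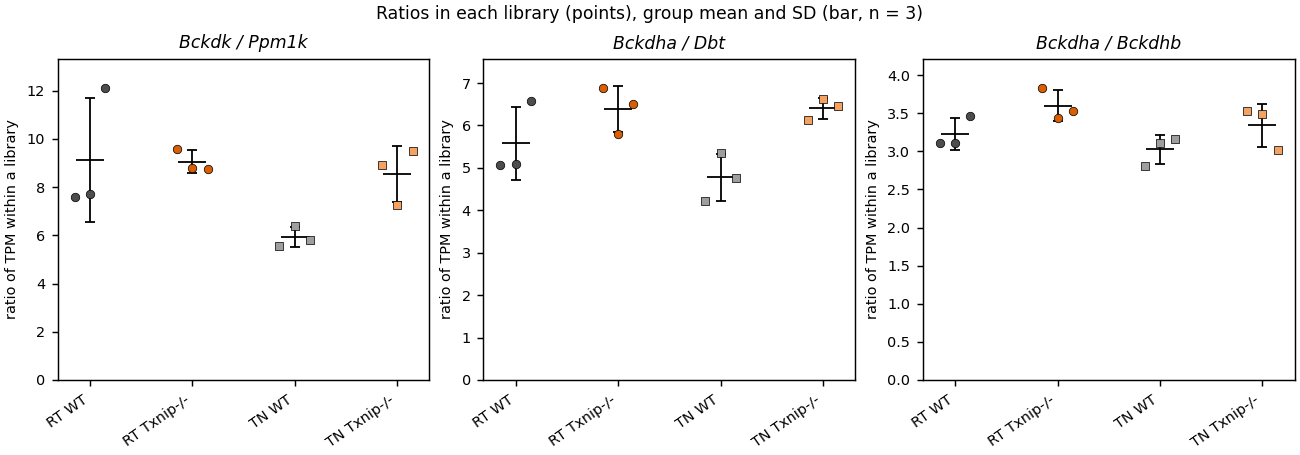
Ratios of TPM within a library (y axes, from 0) of Bckdk to Ppm1k, Bckdha to Dbt and Bckdha to Bckdhb in the 4 groups (x axis); points are libraries, and bars are the group mean and SD of 3 libraries. Bckdk over Ppm1k is between 5.55 and 6.37 in TN WT and above 7 in the other 9 libraries.

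The comparison of TN with RT asks how the genes differ between the housing temperatures. The sources used here do not say whether RT and TN libraries were prepared or sequenced together. Temperature and preparation can therefore not be told apart. Over all genes the median log2 fold change was 0.18 in WT and 0.15 in Txnip-/- mice, so values are also given relative to that median. The carrier Slc25a44 and the heavy chain Slc3a2 were lower at TN in both genotypes, while Ppm1k was higher in WT mice. Of 8 tested members, 2 were called lower and 1 higher in WT mice, where 6.39% of 12486 genes were called lower, 31.4% higher and 37.8% in either direction. In Txnip-/- mice 2 were called lower and 0 higher, where 8.27% were called lower, 30.9% higher and 39.2% in either direction. Since the TPM of most genes shifted upward, this split depended on scaling. With median centring, 4 members were lower in WT mice (Bckdha and Bckdhb in addition) and 6 in Txnip-/- mice (also Bckdha, Bckdhb, Dbt and Bckdk), while the share of all genes called lower rose to 14.7% and 19.5%. Of all called genes 51.1% and 48.5% were then higher, against 83.1% and 78.9% without it. With upper-quartile scaling these shares were 70.4% and 68.8%, and 3 and 5 members were lower, beside 9.65% and 11.7% of all genes. The RT WT libraries also serve the RT genotype comparison and the TN WT libraries the TN one, so these comparisons are not independent.

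Slc25a44 lay between 58.1 and 59.5 TPM in RT WT and between 46.0 and 47.9 TPM in TN WT libraries. The log2 fold change was -0.32 (limma adjusted p = 0.00294), or -0.51 relative to the median gene. In Txnip-/- mice it lay between 65.7 and 69.9 TPM at RT and between 46.7 and 57.4 TPM at TN. The change of -0.41 on the log2 scale (limma adjusted p = 0.000568) was -0.56 relative to the median. RT and TN libraries did not overlap in either genotype. In WT mice the fold fell short of the limit without RT WT 1, RT WT 3 or TN WT 2 (log2 fold change -0.32, -0.32 and -0.31), with a limma adjusted p of at most 0.0135. Slc3a2 went from 38.4 to 46.8 TPM in RT WT to 23.4 to 30.0 TPM in TN WT libraries, which is -0.61 on the log2 scale (limma adjusted p = 0.00362), or -0.80 relative to the median. In Txnip-/- mice its log2 fold change was -0.45 (limma adjusted p = 0.0168), or -0.60 relative to the median, and the call was lost without RT Txnip-/- 1, RT Txnip-/- 2 or TN Txnip-/- 1 (limma adjusted p = 0.0650, 0.0691 and 0.0625).

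Ppm1k rose from 6.47 to 10.5 TPM in RT WT to 10.5 to 13.6 TPM in TN WT libraries, with neighbouring libraries of the groups almost touching (10.478 and 10.509 TPM). Its log2 fold change was 0.42 (limma adjusted p = 0.0289), or 0.24 relative to the median, and it was not called with upper-quartile scaling (limma adjusted p = 0.0708), median centring (0.189) or the WT libraries fitted alone (0.0746). The call was also lost without RT WT 3, TN WT 1 or TN WT 3 (limma adjusted p = 0.103, 0.105 and 0.0568), and without RT WT 3 the log2 fold change was 0.24. In Txnip-/- mice its log2 fold change was -0.14 (95% confidence interval -0.46 to 0.17), or -0.30 relative to the median. Bckdha was lower at TN in both genotypes with limma adjusted p of 0.00456 and 0.000991, but its log2 fold changes of -0.25 and -0.31 (-0.43 and -0.46 relative to the median) were inside the fold limit. Dbt had log2 fold changes of -0.03 in WT and -0.31 in Txnip-/- mice (-0.21 and -0.46 relative to the median), with limma adjusted p of 0.870 and 0.0407. For Bckdhb they were -0.15 and -0.20 (-0.34 and -0.35 relative to the median), with limma adjusted p of 0.130 and 0.0532. Bckdk had -0.13 and -0.25 (-0.31 and -0.40 relative to the median), with limma adjusted p of 0.174 and 0.0153. Those of Bcat2 were 0.28 and 0.17, and none of these values was called. Leaving out 1 library added calls: Bcat2 in WT mice without TN WT 2 (0.45, limma adjusted p = 0.0329), and, in Txnip-/- mice, Bckdha without RT Txnip-/- 2 or TN Txnip-/- 2 (-0.33 and -0.36, 0.00324 and 0.000870) and Dbt without RT Txnip-/- 1 (-0.38, 0.0303). Relative to the median gene, Bcat2 was at 0.09 and 0.02, with a sign in Txnip-/- mice that turned with median centring (-0.02).

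**Figure D4:**
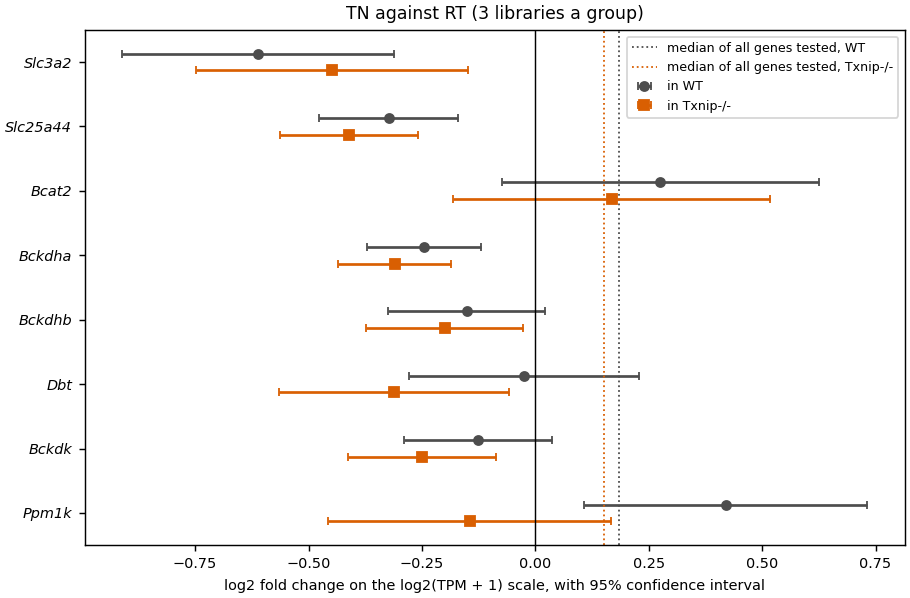
Log2 fold change of TN over RT (x axis, log2(TPM + 1) scale) for the 8 tested members (y axis) in WT (circles) and Txnip-/- mice (squares), with 95% confidence intervals; dotted lines mark the median of all 12486 genes, 0.18 in WT and 0.15 in Txnip-/- mice. Slc3a2 and Slc25a44 lie below 0 in both genotypes, and Ppm1k lies above 0 in WT mice.

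The members of low level were compared apart from the fit above. Slc7a5 had 0.191, 0.182 and 0.049 TPM in RT WT, 0.235, 0.166 and 0.241 TPM in RT Txnip-/-, 0.335, 0.504 and 0.598 TPM in TN WT, and 0.867, 0.557 and 0.899 TPM in TN Txnip-/- libraries. Every TN library lay above every RT library, in contrast to its partner Slc3a2, and the mean at TN was 3.41 times that at RT in WT and 3.62 times in Txnip-/- mice. In a limma fit of log2(TPM + 0.1) over all genes above 0, chosen after these low levels were seen, Slc7a5 was higher at TN with log2 fold changes of 1.30 in WT (limma adjusted p = 0.00827) and 1.46 in Txnip-/- mice (limma adjusted p = 0.00393). An exact permutation of the temperatures within each genotype gave a two-sided p of 0.005, the smallest that its 400 relabellings allow (0.02 after Benjamini-Hochberg adjustment over 4 tests on both genes). The genotype difference of Slc7a5, 0.52 higher in Txnip-/- mice on that scale, had an exact permutation p of 0.035, before and after that adjustment, but a limma adjusted p of 0.217 over all genes, and the genotypes overlapped at both temperatures. The chains of the transporter were far apart in level, with Slc3a2 between 124 and 254 times Slc7a5 in RT libraries other than RT WT 3, where it was 838 times, and between 29.6 and 70.0 times in TN libraries.

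Bcat1 had 0.131, 0.168 and 0.352 TPM in RT WT, 0.340, 0.343 and 0.531 TPM in RT Txnip-/-, 0.284, 0.355 and 0.389 TPM in TN WT, and 0.468, 0.572 and 0.774 TPM in TN Txnip-/- libraries. The genotypes overlapped at RT and lay apart at TN, where the Txnip-/- mean was 1.76 times the WT mean. Across both temperatures Bcat1 was 0.68 higher in Txnip-/- mice on the log2(TPM + 0.1) scale, with an exact permutation p of 0.015 (0.03 after that adjustment over 4 tests). In the limma fit of log2(TPM + 0.1) over all genes above 0 the adjusted p was 0.0729, so the call over all genes was not reached. At TN it was 0.51 higher than at RT across both genotypes (exact permutation p = 0.035, before and after adjustment), but RT and TN libraries overlapped in each genotype and the limma adjusted p was 0.176 in WT and 0.233 in Txnip-/- mice. Both genes are also expressed by immune cells and fibroblasts, whose summed markers given above were higher at TN and in Txnip-/- mice. Their part in these values was not tested.

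The order of the groups differed between the members. Bckdha, Bckdhb and Dbt had the same order of means, from RT WT over TN WT and RT Txnip-/- down to TN Txnip-/-, and all 3 were lowest in TN Txnip-/- libraries, below every library of the next group. For Bckdha the TN WT and RT Txnip-/- libraries overlapped, and for Bckdhb and Dbt the RT WT and TN WT libraries did. Bcat2 had TN WT above RT WT and TN Txnip-/- above RT Txnip-/-, with overlap within each of these pairs. Slc25a44 had RT Txnip-/-, RT WT, TN Txnip-/- and TN WT, with overlap between the TN groups alone. The Bckdk groups overlapped with each neighbour in the order.

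Some enzymes that break down the ketoacids further were lower in Txnip-/- mice as well. The list was written with 18 genes, and Dld, a subunit of the complex itself, was left out of its counts afterwards. At RT, 4 of the other 17 were called lower and 0 higher, beside 0.726% and 0.76% of all genes. Without RT WT 2, only 2 of all genes tested were called lower, so these 4 calls did not all hold. A negative log2 fold change was found for 16 of them and for 40.8% of all genes, and the median was -0.24 against 0.03 for all genes. Those called were Ivd, which oxidises the leucine product isovaleryl-CoA (-0.59, limma adjusted p = 0.0238), Mccc1, a subunit of the next carboxylase of leucine breakdown (-0.54, limma adjusted p = 0.0123), and Pcca and Mmut, which carry propionyl-CoA from valine and isoleucine to succinyl-CoA (-0.39 and -0.37, limma adjusted p = 0.0284 and 0.0439). At RT, Mccc1 had 104 ± 2.57 TPM in WT against 71.8 ± 1.77 TPM in Txnip-/- mice.

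At TN, 6 of the 17 were called lower and 0 higher, beside 2.17% and 6.49% of all genes. All 17 had a negative log2 fold change, as did 48.1% of all genes, and the median was -0.30 against 0.01 for all genes. Led by Ivd (-0.56, limma adjusted p = 0.0329), they included Aldh6a1, the methylmalonate semialdehyde dehydrogenase of valine breakdown (-0.54, 0.0174), Acadsb, the short/branched-chain acyl-CoA dehydrogenase of isoleucine breakdown (-0.51, 0.0236), and Mmut (-0.50, 0.0197). Averaged over the temperatures, 7 were called lower and 0 higher, beside 2.2% and 5.64% of all genes, with a median of -0.27 against 0.02 for all genes. These counts are a description of a list chosen with results of these samples known.

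**Figure D5:**
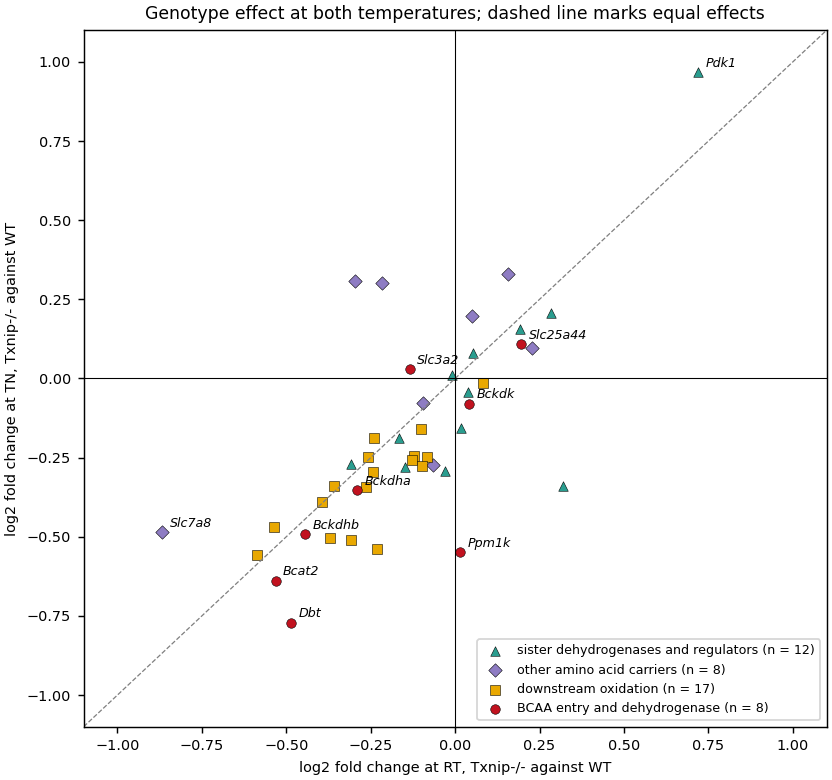
Log2 fold change of Txnip-/- over WT on the log2(TPM + 1) scale at RT (x axis) and at TN (y axis) for the tested members and for 3 lists of related genes; each point is a gene and the dashed line marks equal values. At TN all 17 genes of ketoacid breakdown lie below 0, as do 16 at RT, while Pdk1 lies at 0.72 and 0.97.

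The sister dehydrogenases of pyruvate and 2-oxoglutarate, which share Dld and a like subunit plan, are given beside these lists. Of 12 genes tested at RT and 13 at TN, 0 were called lower and 1 was called higher in each, beside 0.726% and 2.17% of all genes called lower and 0.76% and 6.49% called higher, with medians of 0.03 and -0.04. At TN that count was near the share of all genes. The gene called was Pdk1, a kinase that switches off pyruvate dehydrogenase. It had 50.6 ± 5.05 TPM in WT against 84.0 ± 6.74 TPM in Txnip-/- mice at RT and 47.3 ± 9.74 and 92.3 ± 5.51 TPM at TN, with log2 fold changes of 0.72 (limma adjusted p = 0.0218) and 0.97 (limma adjusted p = 0.00752). The RT call was lost without RT WT 2, where 0 of all genes were called higher. Pdk1 lay higher in Txnip-/- mice at both temperatures, whereas the kinase of the branched-chain complex, Bckdk, was not called at either. Among the other carriers of neutral amino acids, 8 of 9 passed the filter and 0 were called in either genotype comparison, beside 1.49% and 8.66% of all genes. Averaged over the temperatures, where 2.2% of all genes were called lower, Slc7a8, another light chain that pairs with Slc3a2, was lower in Txnip-/- mice (-0.68, limma adjusted p = 0.00905), with 1.99 ± 0.961 TPM in WT against 0.584 ± 0.131 TPM in Txnip-/- mice at RT and 2.43 ± 0.508 and 1.44 ± 0.284 TPM at TN.

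Between temperatures the lists went both ways, and their counts stand beside all genes, of which 31.4% were called higher and 6.39% lower in WT and 30.9% and 8.27% in Txnip-/- mice. In WT mice, 1 gene of ketoacid breakdown was called higher at TN and 3 of 17 lower, with a median of -0.14, and in Txnip-/- mice 0 and 5, with a median of -0.20, against medians of 0.18 and 0.15 for all genes. Dld was called lower in Txnip-/- mice (-0.41, limma adjusted p = 0.000562). The 8 tested carriers held 3 higher and 3 lower in WT mice. Slc1a5, an exchanger of glutamine and other neutral amino acids, and Slc43a1, a carrier of large neutral amino acids, rose by 0.79 and 0.55 on the log2 scale, while Slc7a10 and Slc43a2 fell by 0.64 and 0.61. In Txnip-/- mice 4 carriers were called higher, with Slc43a1 at 1.15, and 2 were called lower. Of the 13 sister dehydrogenase genes, 1 was called higher and 6 lower in WT mice and 1 and 7 in Txnip-/- mice. No gene of the 3 lists passed the interaction test.

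The transcripts counted for the members lie, in mm10, on chromosomes 3 (Slc25a44 and Dbt), 6 (Bcat1 and Ppm1k), 7 (Bcat2, Bckdha and Bckdk), 8 (Slc7a5), 9 (Bckdhb) and 19 (Slc3a2). Slc25a44 and Dbt are on the chromosome of Txnip, 8.1 and 20.0 Mb from it. Exons of 3 members overlap those of a gene on the opposite strand. Bckdha shares 1171 bases, or 61.7% of its exonic bases, with B3gnt8, Bcat2 shares 15.9% with the antisense gene 0610005C13Rik, and Bcat1 shares 3.6% with the antisense gene Gm26666. Whether reads were counted by strand is not given in the sources used here, and reads of such a pair cannot be told apart without it. B3gnt8 was listed at group means of 0.796 to 2.04 TPM, against 330 TPM or more for Bckdha.

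By the smallest root mean square difference of log2(TPM + 1), each gene centred on its mean over the 12 libraries, 8903 genes with a mean of at least 5 TPM were ranked for their likeness to 3 members. Dbt was closest to Aldh4a1 (0.106), an enzyme of proline breakdown, Ivd (0.116) and Syp (0.123). Bcat2 was closest to Glud1 (0.156), the glutamate dehydrogenase that can take up the amino groups passed on by transaminases, Gstk1 (0.159) and Kctd13 (0.169). For Slc25a44 they were Stk38 (0.0652), Stk40 (0.0673) and Dhx33 (0.0707). The members' own variation about their mean, on the same scale, was 0.358 for Dbt, 0.365 for Bcat2 and 0.211 for Slc25a44.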

How the data were processed

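The authors aligned single-end, poly-A selected reads to mm10 with STAR 2.7.5a and summarised them per gene with HOMER 4.11.1. The deposited table of TPM values for 12 libraries was analysed. The authors also deposited log2-scale normalized values for each temperature, together with columns of their own DESeq2 comparisons (fold changes, p-values). Those columns were not used. The log2 values, which list another transcript for Slc25a44, Dbt and, at TN, Ppm1k, served as an alternative. Across genes they rose by 0.991 (both tables) per log2 unit of TPM times transcript length, while differences between libraries were 0.654 (RT) and 0.704 (TN) of those in log2 TPM among variable genes.

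Log2(TPM + 1) of genes with a mean of at least 1 TPM was fitted with limma 3.58.1 (R 4.3.3; empirical Bayes with a trend) and p-values were adjusted by Benjamini-Hochberg over all genes tested. A call required an adjusted p under 0.05 and, except for the interaction, a fold change over 1.25 or under 0.8. Each genotype comparison used its 6 libraries, and the other comparisons all 12. Fold changes on this scale understate those of low genes. The ratio of Bckdk to Ppm1k and the low members were tested by exact permutation in Python 3.11.15 with scipy 1.17.1. The fits were also run on simulated data as a check of the code, and the outcome is not given here. TPM values give no counting error, so no counting interval is given. The labels do not say that the mice of a group came from separate litters or runs, so p-values measure the spread between these samples. The paper describes the WT mice as littermates of the Txnip-/- mice. The labels give no litter, and no pairing entered the main fits.

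Named genes were all 10 members, Txnip, of each list up to 4 genes called in a comparison by the size of the change, and the 3 genes most like each of 3 members. The rule also held Slc7a5, whose ranking is not given because the pseudocount flattens its low values. The brown adipocyte markers, Slc7a6, B3gnt8, Dld and the genes overlapping a member were named outside this rule. The members and lists were chosen with earlier results of these data known. Protein sequences were not analysed here.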

Additional observations from a re-analysis of the deposited data

How the results depend on the processing

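At RT, 2 members were called. There was 1 with log2(TPM + 0.1) or all 12 libraries in 1 fit, 0 with all genes above 0 on either the log2(TPM + 1) or the log2(TPM + 0.1) scale, and between 0 and 3 with 1 library left out. The number called at TN was between 1 and 5 with 1 library left out. Between temperatures it was between 1 and 3 in each genotype with 1 library left out, and in Txnip-/- mice 5 with upper-quartile scaling and 6 with median centring, where 11.7% and 19.5% of all genes were called lower, against 8.27%. The log2 ratio of Bckdk to Ppm1k, with 1 library left out, lay between -0.10 and 0.24 for the genotypes at RT and between -0.17 and 0.024 for the temperatures in Txnip-/- mice. Signs of uncalled log2 fold changes turned as follows. At RT, Bckdk was -0.0038 with the authors' log2-scale values, and Ppm1k was -0.0056 with upper-quartile scaling, -0.013 with median centring and -0.020 with the authors' log2-scale values. With 1 library left out, Ppm1k at RT ran from -0.17 to 0.14, Slc3a2 from -0.23 to 0.034 at RT and from -0.072 to 0.10 at TN, and Dbt from -0.14 to 0.079 between temperatures in WT mice. The interaction then ran from -0.28 to 0.067 for Bcat2, from -0.10 to 0.032 for Bckdhb and from -0.0052 to 0.26 for Slc3a2, and the averaged genotype effect from -0.047 to 0.018 for Bckdk and from -0.10 to 0.031 for Slc3a2. With median centring, Slc3a2 at TN was -0.0075 and Bcat2 between temperatures in Txnip-/- mice -0.021. The causes were not tested.

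Whether equal replicate numbers mark pairs of samples cannot be settled from these values. Correlations of deviations between equal numbers were 0.297, -0.022 and 0.21 at RT and 0.042, 0.023 and -0.036 at TN. At RT, WT 1 and WT 3 correlated best with their own number, but not every sample did. With the replicate number as a block, 0 members and 100 genes were called at RT, against 2 and 178, and 3 members at TN, without Bckdha (limma adjusted p = 0.0613), which was also lost with all genes above 0 on both scales and with the authors' log2-scale values. The interaction then held 4 genes instead of 1. Counts over all genes ran from 2 to 159 at RT and from 456 to 1005 at TN with 1 library left out. Over all settings, the main one aside, 754 of 864 values of single members or of counts over all genes were alike. For a member this means the same direction and side of the threshold, also where it was never called. For a count it means a similar size, and the genes called may differ. Of the other values, 41 lost and 28 gained the call, 20 reversed, and 21 counts over all genes moved. Of 124 values that answer a comparison, 104 were alike, 16 moved and 4 reversed. The calls of Dbt, Bckdhb and Ppm1k at TN held in 9 of 9 other settings, as did those of Bcat2, Bckdhb and Dbt in 7 of 7 for the averaged effect. Depth ran from 29.9 M to 47.4 M reads. Bcat1 and Slc7a5, under 1 TPM, were the lowest members, and their counting error is not known from TPM.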
